A study of Drosophila melanogaster with 3 samples.

Results

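The 8 Hox genes of Drosophila melanogaster were examined as places where CG1602 was enriched on chromatin. They are lab, pb, Dfd, Scr and Antp of the Antennapedia complex, and Ubx, abd-A and Abd-B of the bithorax complex. They were located by symbol in the gene annotation of the dm6 genome build, where all 8 lie on chromosome arm 3R. Every deposited region counted whose summit, the base of strongest enrichment, fell inside 1 of these genes or within 20 kb of it. By this rule 25 of the 4599 peaks thresholded for reproducibility (0.544%) and 100 of the 16640 pooled regions belonged to the Hox genes. The genes themselves are 8 of 17466 annotated genes.

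The material was whole embryos of mixed sex, collected 0 to 24 h after laying, of a transgenic line that stably expresses CG1602 with green fluorescent protein (GFP) at its C terminus. Chromatin immunoprecipitation with an antibody against GFP and sequencing (ChIP-seq) was done on 3 biological replicates, which all carry the transgene and form 1 group, with 1 shared control, itself not analysed here. The tagged protein stands in for native CG1602, and the embryos mix all ages and segments, so few cells with strong binding and many cells with weak binding cannot be told apart. There was no second condition, so the data answer where the fusion protein was enriched around the Hox genes and how far the replicates share those places.

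Each replicate list mixes peaks with background regions. Replicates 1, 2 and 3 had 17580, 27164 and 18386 regions, of which 108, 164 and 114 lay in the Hox windows. The reproducible list was made by irreproducible discovery rate (IDR), which keeps regions that rank alike in the replicates, and its members are called IDR peaks. Each of the 25 IDR peaks had the same rank in the pooled list as in the IDR list, so the IDR values rest on the pooled signal. The weakest of them had rank 4528, and the strongest pooled region of the Hox windows outside the IDR list had rank 4622. Membership in the windows thus followed a cutoff on pooled signal and need not mean alike ranks in each replicate. The signal of a region comes from the authors, in units that the sources do not name. It is read only within a list, with rank 1 the strongest. Read depth is unknown here, and intervals on shares cover counting error over peaks only. All comparisons are descriptive, with no test, because there is 1 group and each gene is a single locus.

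Hox genes encode homeodomain transcription factors that give the segments of the body their identity along the head to tail axis. In the fly they are split between the Antennapedia complex, for the head and anterior thorax, and the bithorax complex, for the posterior thorax and abdomen. Long introns and long non-coding stretches between the genes hold enhancers, Polycomb response elements and chromatin boundaries, which set the segments where each gene is active. Several non-coding RNAs are transcribed across the same stretches.

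The reference sequence around 9 summits shows what kinds of places these were. Each run is 101 bases of the plus strand of dm6, written 5′ to 3′ and centred on the summit, from the RefSeq copy of the assembly. Capitals mark matches, on either strand, to the motif words listed with the motif counts below, and a run with no capitals holds none of them. The first is the only IDR peak at a promoter of a Hox gene, the next 4 are the strongest IDR peaks inside lab, Antp, Ubx and Abd-B, and the last of this group is the strongest of all 25.
Dfd promoter (chr3R:6791329-6791429): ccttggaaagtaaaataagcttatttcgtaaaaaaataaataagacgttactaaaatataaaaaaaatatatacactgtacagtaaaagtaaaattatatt
lab intron (chr3R:6667409-6667509): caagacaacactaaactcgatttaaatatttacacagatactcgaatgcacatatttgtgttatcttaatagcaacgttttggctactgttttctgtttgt
Antp intron (chr3R:6912501-6912601): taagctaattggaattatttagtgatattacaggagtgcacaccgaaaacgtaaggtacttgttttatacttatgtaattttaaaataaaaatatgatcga
Ubx intron (chr3R:16718064-16718164): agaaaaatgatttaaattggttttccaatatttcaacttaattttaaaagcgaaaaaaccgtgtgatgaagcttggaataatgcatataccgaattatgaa
Abd-B intron (chr3R:16958212-16958312): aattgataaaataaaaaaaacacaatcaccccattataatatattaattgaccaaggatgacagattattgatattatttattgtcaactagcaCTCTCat
intergenic, beside abd-A (chr3R:16798847-16798947): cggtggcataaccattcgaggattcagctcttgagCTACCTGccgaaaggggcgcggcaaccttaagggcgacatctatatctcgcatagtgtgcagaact
The last 3 are bithorax peaks with a core word of CTCF, an insulator protein, within 50 bp of the summit.
lncRNA:bxd intron (chr3R:16748696-16748796): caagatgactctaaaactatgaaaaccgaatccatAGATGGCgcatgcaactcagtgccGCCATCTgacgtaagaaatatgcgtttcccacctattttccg
lncRNA:iab8 intron upstream of abd-A (chr3R:16834825-16834925): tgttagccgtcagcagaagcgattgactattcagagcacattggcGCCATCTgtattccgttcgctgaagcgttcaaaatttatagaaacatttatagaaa
lncRNA:iab8 intron beside Abd-B (chr3R:16919184-16919284): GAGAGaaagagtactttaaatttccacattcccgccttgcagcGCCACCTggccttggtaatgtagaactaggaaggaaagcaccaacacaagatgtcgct

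IDR peaks around the Hox genes lay mostly in introns. Of the 25 summits, 16 were intronic, 7 were within 500 bp of a transcription start site (TSS) of some gene and 2 were intergenic. None was placed in a coding exon or UTR, but promoters were called first, so such a summit near a TSS would count as promoter. Introns therefore held 64.0% of the Hox-window peaks (95% Clopper-Pearson interval 42.5 to 82.0%), against 34.0% of all IDR peaks. Promoters held 28.0% (12.1 to 49.4%), against 49.5% of all IDR peaks, and intergenic sequence held 8.0% (0.984 to 26.0%), against 14.3%. The interval for promoters ends just below the share over all peaks, and the interval for introns starts above it. Introns also take up more of the sequence here, with 53.1% of bases in the Hox windows and 39.5% along the arms. Promoter sequence took up 12.9% of the Hox windows and 13.4% of the arms. The 100 pooled regions leaned the same way, with 57 in introns and 20 at promoters, against 39.2% and 35.1% of all pooled regions.

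**Figure D1:**
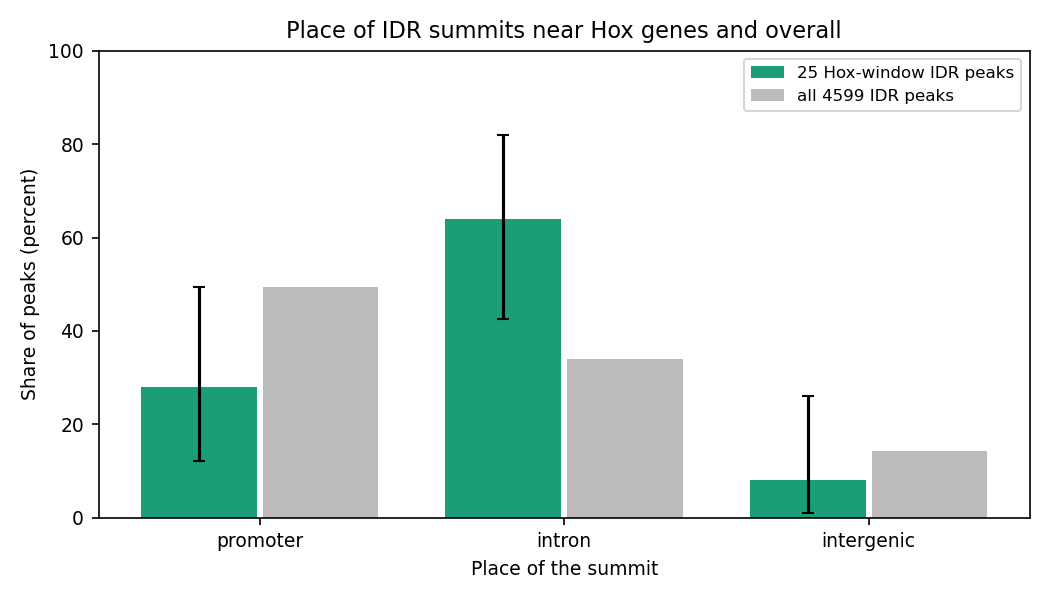
Share of IDR summits (percent, y axis) at promoters, in introns and in intergenic sequence (x axis), for the 25 Hox-window peaks (green, left) and all 4599 IDR peaks (grey, right); error bars are 95% Clopper-Pearson intervals. Introns hold 64.0% of the Hox-window peaks, against 34.0% of all IDR peaks, and promoters hold 28.0%, against 49.5%.

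Distance from start sites showed the same lean. Of the Hox-window peaks, 15 (60.0%) lay over 2000 bp from the nearest TSS of any gene, against 29.6% of all IDR peaks. Positions that far from a TSS make up 61.6% of the Hox windows and 62.6% of the arms. The farthest 2 were an intronic Ubx peak at 15711 bp, whose nearest TSS is that of asRNA:PS4, and an intronic Antp peak at 12676 bp.

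Across genes the count ran between 1 and 6 IDR peaks. All 8 Hox genes had an IDR peak in the gene or within 20 kb, as did 83.0% of the 1985 protein-coding genes of at least 10 kb, the length class that holds every Hox gene. Antp had 6 peaks, abd-A and Abd-B had 5 each, Ubx had 4, lab and Dfd had 2 each, and pb and Scr had 1 each. The Dfd and Scr windows share 1 of these peaks. Per length the 8 windows together held 3.98 IDR peaks per 100 kb, against 3.73 in the windows of 55 homeobox genes outside the complexes, 3.45 on arm 3R and 3.44 on all arms. By this measure the Hox loci as a whole were close to the chromosome arm they sit on. The pooled list stood farther from the arm, with 15.9 regions per 100 kb in the 8 windows against 12.0 on arm 3R. Its density was 12.4 on all arms and 14.9 in the windows of the 55 homeobox genes. These differences were not tested.

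The bithorax windows held 14 peaks, or 5.27 per 100 kb, and the Antennapedia windows 11, or 3.04 per 100 kb. Pooled regions were about evenly dense, with 16.2 per 100 kb in the bithorax windows and 15.8 in the Antennapedia windows. A larger share of the bithorax regions thus reached the IDR list, 32.6% (14 of 43) against 19.3% (11 of 57). These shares rest on few regions, no interval was computed for them, and their difference was not tested. Over both complexes 25.0% of the pooled regions were in the IDR list, beside 27.6% of all pooled regions. Among the long genes, abd-A stood highest, with a window density above that of 84.1% of them, and Abd-B above 71.4%. Antp stood above 57.1%, Dfd above 54.6%, lab above 46.4% and Ubx above 45.3%. The sparsest windows were those of Scr and pb, above 22.9% and 21.2% of long genes.

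**Figure D2:**
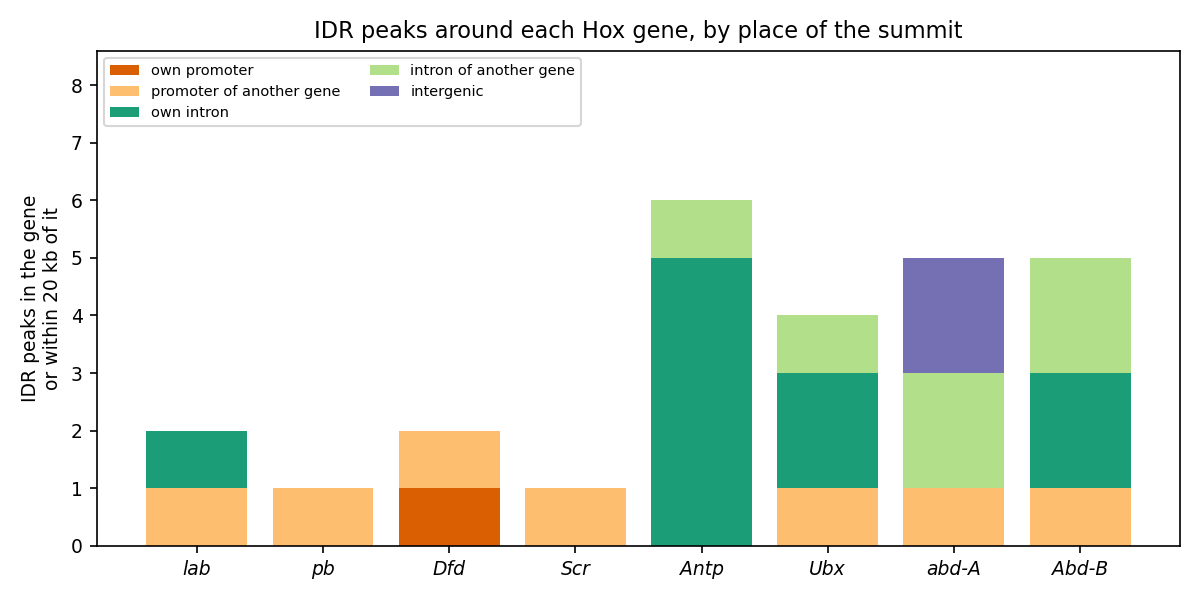
Number of IDR peaks (y axis) in each Hox gene or within 20 kb of it (x axis, in chromosomal order), stacked by the place of the summit. Antp has 6 peaks, 5 of them in its own introns, while Dfd alone has a peak at its own promoter; the peak shared by Dfd and Scr is drawn in both bars.

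At the promoters of the Hox genes themselves the IDR list held 1 peak. An IDR summit lay within 500 bp of an own TSS in 1 of 8 genes (12.5%, 95% Clopper-Pearson interval 0.316 to 52.7%), beside 20.4% of all protein-coding genes and 26.4% of those of at least 10 kb. Both of these shares lie inside the interval, so 8 genes do not set the Hox promoters apart. That gene was Dfd (FBgn0000439, 6791836 to 6802428, plus strand), which specifies the mandibular and maxillary segments of the head. Its summit at 6791379 lay 457 bp upstream of the TSS, in the most AT-rich of the 25 summit windows, with 17.9% GC over 201 bases. The signal was 186 (rank 2319 of 4599). In the replicates the matching region had signals of 56.3, 51.8 and 74.8 (ranks 2682, 1893 and 2503). It stood at the top 11.9% ± 4.39 (SD, n = 3) of the replicate lists. In replicate 1 the matching summit was 89 bp away and outside the 500 bp limit, where a region with a signal of 34.7 (rank 4853) lay 320 bp upstream of the TSS instead.

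Weaker regions were found at more Hox promoters. In the pooled list 3 of 8 genes had a region at an own promoter, lab, Dfd and Antp, beside 55.1% of protein-coding genes of at least 10 kb. lab had 2 such regions, the stronger with a signal of 44.7 (rank 14225 of 16640) and the other, 21 bp upstream of a TSS (−21), with a signal of 42.0 (rank 15911), both low in the list. The Antp summit nearest to a TSS, 285 bp upstream of a TSS (−285), had a signal of 58.1 and rank 9574. Replicate 1 had such regions at 2 genes, Dfd and Antp, and replicate 3 at 3, lab, Dfd and Antp. Replicate 2, the longest list, had them at 6 genes, adding pb, Scr and abd-A. Dfd and Antp were thus the genes with a promoter region in every replicate list, while Ubx and Abd-B had none within 500 bp of an own TSS in any of the 5 lists.

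**Figure D3:**
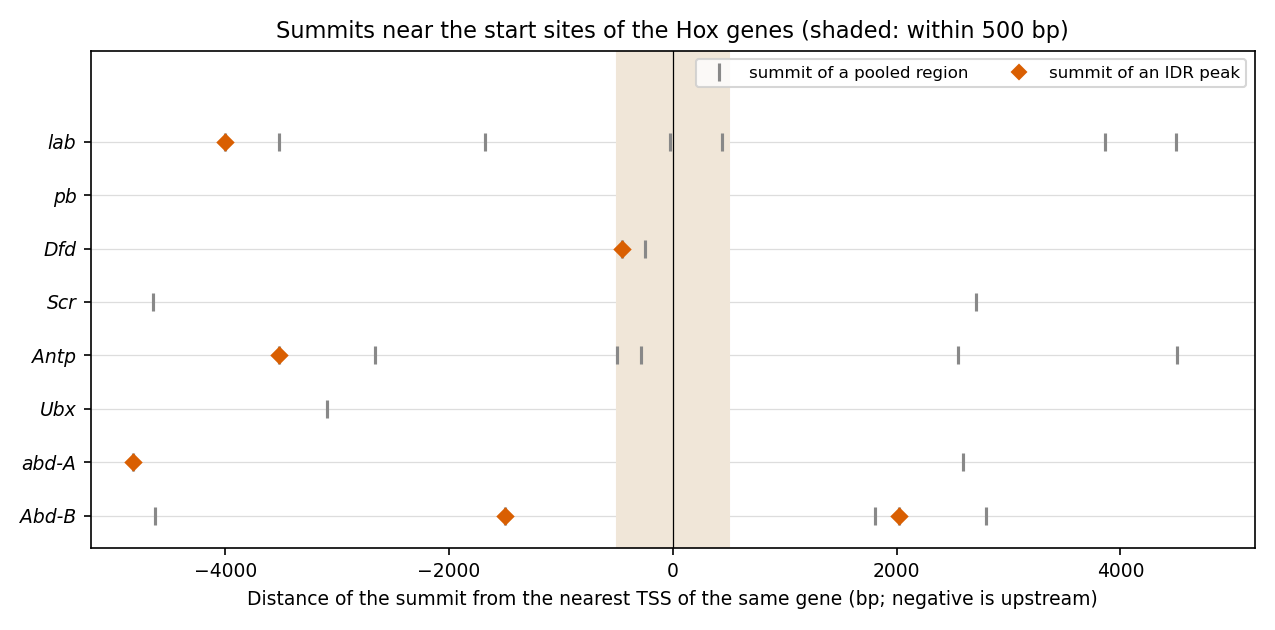
Distance in bp (x axis, negative is upstream) of summits from the nearest TSS of the same Hox gene, for each gene (rows), within 5 kb; grey ticks are pooled regions, orange diamonds IDR peaks, and the shaded band is the 500 bp on each side called the promoter. Only Dfd has a diamond in the band, at −457 bp, and Abd-B has diamonds at −1498 and 2019 bp.

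Inside the Hox genes there were 10 IDR peaks, all intronic. They fell in 4 of 8 genes, Antp with 5, Ubx and Abd-B with 2 each and lab with 1, beside 33.5% of protein-coding genes of at least 10 kb with an intronic IDR peak. Among the 30 homeobox genes of that length outside the complexes, 8 (26.7%) had one. The bodies of pb, Dfd, Scr and abd-A held no IDR peak. Length was not matched beyond the 10 kb minimum, and Antp, Ubx and Abd-B are 103, 77.8 and 45.0 kb long. Per length the 8 gene bodies together held 2.96 IDR peaks per 100 kb, against 3.45 on arm 3R.

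lab (FBgn0002522, 6661427 to 6678590, minus strand), which acts in the head and the midgut, had 1 intronic peak, at 6667459, with its sequence above. Its IDR signal was 149.8 (rank 3080), and its signals in the replicates were 23.0, 57.1 and 54.9 (ranks 8165, 1602 and 3718). Replicate 1 placed it in the middle of its list and replicate 2 near the top. Its mean place was the top 24.2% ± 20.6 (SD, n = 3). Beyond lab, 1 further peak lay in its window, 183 bp upstream of CG1307 and within 500 bp of a TSS of twr. This peak had the lowest signal of all 25, at 109.5 (rank 4528). Its replicate signals were 45.2, 26.1 and 52.0.

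pb (FBgn0051481, 6707800 to 6742063, minus strand), which forms the adult mouthparts, had no IDR peak in its body. The strongest of its 4 pooled regions, in an intron, had a signal of 94.2 (rank 5421). The 1 IDR peak of its window belonged to a neighbour, bcd, which encodes the maternal homeodomain protein that patterns the anterior embryo. It lay 177 bp upstream of the bcd TSS at 6759643, with a signal of 335 (rank 892). Its replicate signals were 120, 71.8 and 148 (ranks 811, 1107 and 827), and it stood at the top 4.40% ± 0.283 (SD, n = 3) of the lists, the narrowest spread of the 25.

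Scr (FBgn0003339, 6823120 to 6849981, minus strand), which specifies the labial segment and the anterior thorax, had no IDR peak in its body. Its 1 pooled region inside the gene, in an intron, had a signal of 54.2 (rank 10504). The peak that it shares with Dfd lay 432 bp upstream of lncRNA:CR42651, a non-coding gene between them, at 6816811. That peak had a signal of 129 (rank 3680), and signals of 49.6, 37.9 and 26.1 in the replicates (ranks 3139, 3074 and 9474). Replicate 3 placed it at 51.5% of its list, against 17.9% and 11.3% in replicates 1 and 2.

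Antp (FBgn0260642, 6896253 to 6999228, minus strand), which specifies the thorax, is the longest of the 8 genes and had the most peaks. Its 22 pooled regions inside the gene included 5 IDR peaks, between 6903364 and 6936361, which also lie in introns of the overlapping gene CG46458. The strongest, at 6912551, had a signal of 336 (rank 883). Its replicate signals were 105, 98.8 and 125 (ranks 1021, 558 and 1136). The other 4 had signals of 221, 194, 182 and 169.7, in the order of their positions. All 5 were among the 4599 strongest regions of every replicate, and their mean places ran between the top 4.68% and the top 12.8% of the replicate lists. Outside the gene, 1 more peak lay in an intron of lncRNA:CR44931, with a signal of 264 (rank 1341).

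**Figure D4:**
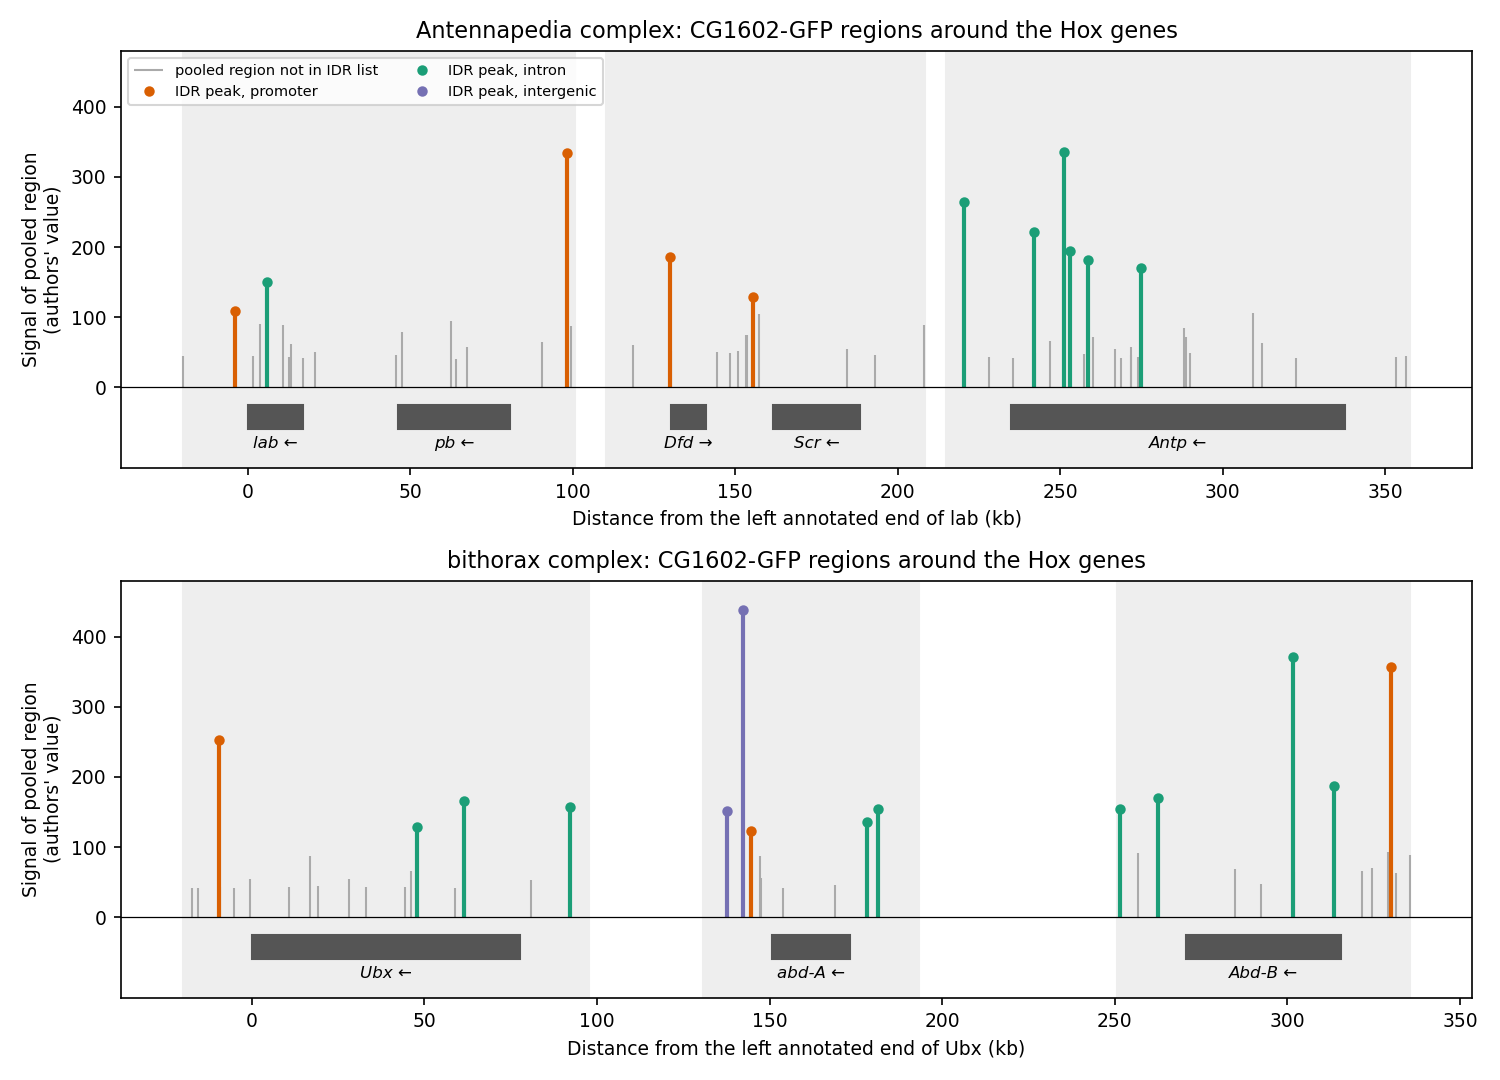
Regions around the Hox genes of the Antennapedia complex (top) and the bithorax complex (bottom), with distance in kb on the x axis and the authors' pooled signal on the y axis. Coloured stems are IDR peaks by place, grey stems pooled regions not in the IDR list, dark boxes the genes with arrows for strand, and light grey bands the windows of 20 kb; the highest stem, at 438, stands beside abd-A.

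Ubx (FBgn0003944, 16656623 to 16734426, minus strand) specifies the posterior thorax and the first abdominal segment. It had 2 intronic peaks, at 16704416 with a signal of 129 (rank 3692) and at 16718114 with a signal of 166 (rank 2683). The signals of the stronger one in the replicates were 59.5, 36.7 and 65.0 (ranks 2483, 3205 and 2978). The nearest IDR summit upstream of its promoter, 14320 bp from the TSS, lay in an intron of lncRNA:bxd, a non-coding gene in the regulatory region of Ubx, with a signal of 156 (rank 2902). The fourth peak of the Ubx window lay 182 bp upstream of CG10324 and within 500 bp of a TSS of CCT3, a chaperonin subunit gene, with a signal of 253 (rank 1449).

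abd-A (FBgn0000014, 16807214 to 16830049, minus strand), which acts in most abdominal segments, had no IDR peak inside it but 5 beside it. Its 2 pooled regions inside the gene were weak, the stronger at a signal of 46.2 (rank 13424). The strongest peak of all 25 lay 8317 bp beyond the 3′ end of abd-A, at 16798897, in intergenic sequence 1703 bp upstream of lncRNA:CR45750. Its IDR signal was 438 (rank 517), and its replicate signals were 143, 89.5 and 202 (ranks 586, 717 and 448). All 3 replicates placed it near the top of their lists, at the top 2.80% ± 0.470 (SD, n = 3).

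On the same side of abd-A, a peak 167 bp upstream of lncRNA:TS16 had a signal of 123 (rank 3897), and an intergenic one nearest to Glut3, a glucose transporter gene, had 152 (rank 3011). Upstream of abd-A, 2 peaks lay 4826 and 7956 bp from its TSS (−4826 and −7956), in introns of lncRNA:iab8 and MSAmiP, with signals of 136 and 154 (ranks 3495 and 2961). lncRNA:iab8 spans the regulatory region between abd-A and Abd-B.

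Abd-B (FBgn0000015, 16927212 to 16972236, minus strand), which specifies the posterior abdomen and the genitalia, had 2 intronic peaks. The stronger, at 16958262, lay 2019 bp downstream of an own TSS and had a signal of 372 (rank 725). Its replicate signals were 148, 96.5 and 138 (ranks 560, 597 and 941), at the top 3.50% ± 1.49 (SD, n = 3) of the lists. The other, at 16970072, lay 1498 bp upstream of a TSS (−1498), with a signal of 188 (rank 2282). Around the gene, 2 peaks in introns of lncRNA:iab8 had signals of 154 and 170.4 (ranks 2951 and 2582), and a peak 217 bp downstream of the TSS of CG18622 had 356 (rank 788).

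The 25 peaks were spread over the strengths of the IDR list. Their signals ran between 109.5 and 438, with a median of 170.4, against a median of 186.9 over all IDR peaks. The 2299 strongest IDR peaks included 10 of the 25 (40.0%). Among the 1000 strongest IDR peaks there were 5, those beside abd-A, in Abd-B, at CG18622, in Antp and at bcd. Of these, 3 lay outside promoters.

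Most of the peaks were shared by the replicates. Each replicate list was shortened to its 4599 strongest regions, and a peak was counted as held where it overlapped 1 of them by at least 1 bp. By this rule 19 of 25 were held by all 3 replicates, beside 73.6% of all IDR peaks, and the other 6 were held by 2. All 25 were present in the 3 whole lists. The 6 were the peaks at CG1307, in lab, at lncRNA:CR42651, the weaker one in Ubx, the one 4826 bp upstream of abd-A and the lncRNA:iab8 peak with a signal of 170.4. Replicate 1 did not hold the lab peak and the last 2 named, replicate 2 did not hold those at CG1307 and in Ubx, and replicate 3 did not hold that at lncRNA:CR42651. The IDR list draws on the same replicates, so this overlap is partly built in.

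**Figure D5:**
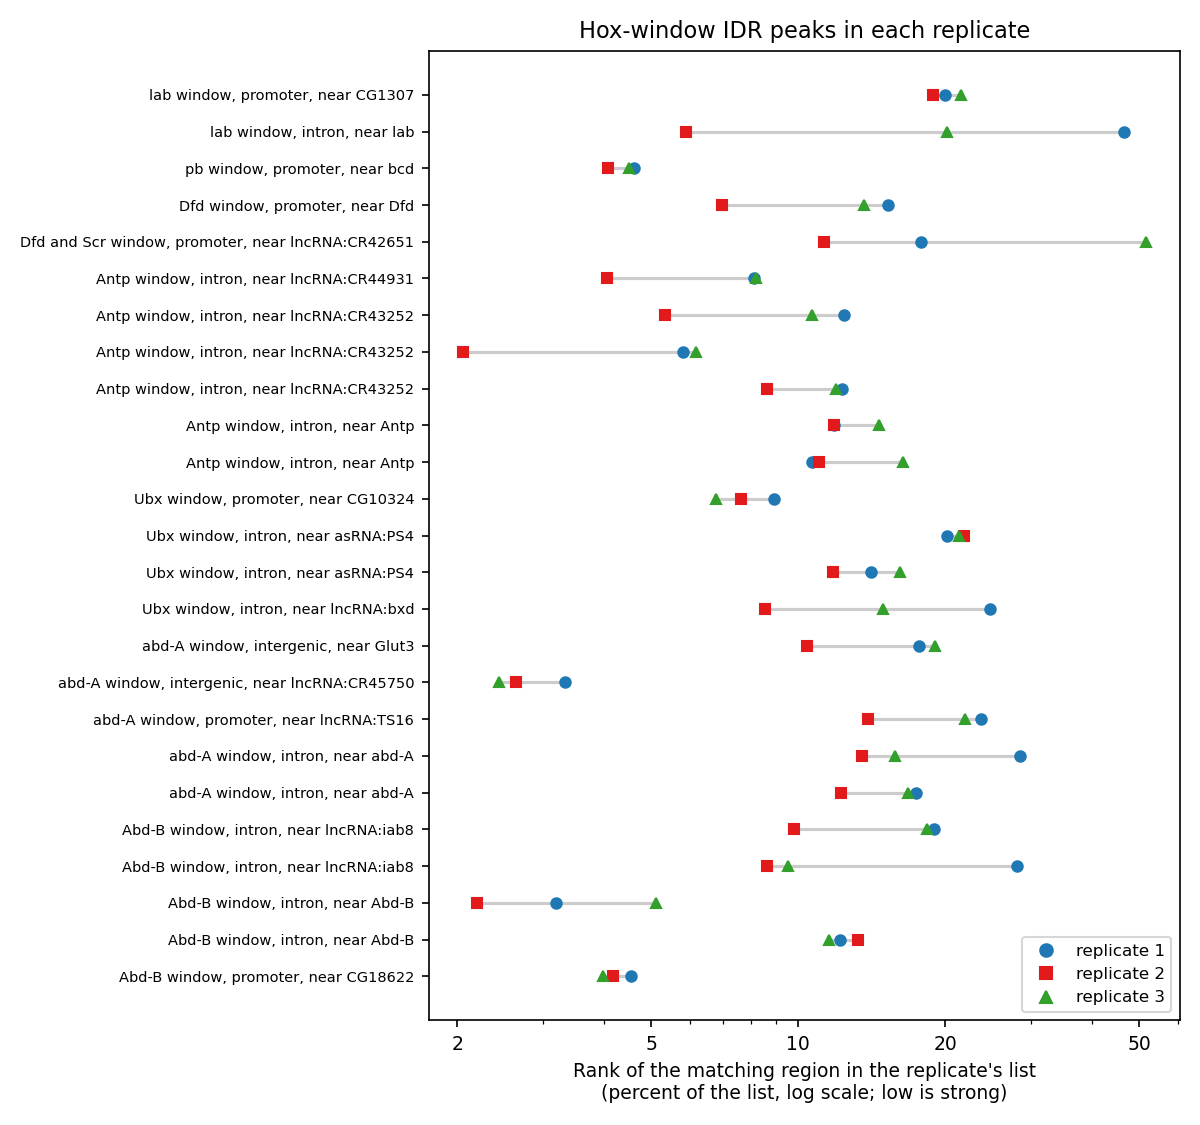
Place of each of the 25 Hox-window IDR peaks (rows, in chromosomal order) in each replicate list, as rank in percent of the list (x axis, log scale, low is strong); circles, squares and triangles are replicates 1, 2 and 3. The lab intron peak spans 5.90 to 46.4% and the lncRNA:CR42651 peak 11.3 to 51.5%, while the bcd and CG18622 peaks stay between 3.98 and 4.61%.

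The edge of the 20 kb window decided a few members. The peak farthest from a Hox gene was the lncRNA:iab8 peak at 16908021, 19191 bp from Abd-B, with a signal of 154. The nearest peaks outside lay 20913 and 21129 bp from pb, near lncRNA:CR45593 and the cell adhesion gene Ama, with signals of 443 and 248 (ranks 506 and 1489). Between the bithorax windows lay 4 more IDR peaks. Of these, 2 were in introns of lncRNA:bxd between Ubx and abd-A, with signals of 169.2 and 141. The other 2 were in introns of lncRNA:iab8 between abd-A and Abd-B, with signals of 144 and 274, and had mir-iab-8, a microRNA gene, as the gene with the nearest TSS. Their replicate ranks were 5043, 5016 and 2642 for the weaker peak and 2263, 1500 and 937 for the stronger.

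Of 8 motif words, each searched on either strand up to 100 bp from a summit, the CTCF core AGNTGGC was found in 4 of the 25 windows (16.0%, 95% Clopper-Pearson interval 4.54 to 36.1%), against 9.89% of all IDR windows. All 4 were among the 14 bithorax peaks, namely the weaker Ubx intron peak and the 3 shown above in introns of lncRNA:bxd and lncRNA:iab8. That split depended on the window: up to 250 bp from the summit the word was in 9 of 25 peaks, of which 6 were bithorax peaks. The lncRNA:bxd window had 2 matches, 1 on each strand and each centred 12 bp from the summit. In the lncRNA:iab8 windows the matches were centred 2 and 4 bp to the left of the summit (−2 and −4). The interval takes in the share over all peaks, and a match is no more than these letters.

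The other words gave low counts. GAGAG, a word bound by GAGA factor, was in 6 windows (24.0%), against 19.7% of all IDR windows. The homeodomain core TAATTA was in 4 (16.0%), against 20.2%, among them the Dfd promoter, 63 bp from the summit and so beyond the printed run. TGCATAC, a core of the insulator protein Su(Hw), was in 2 (8.0%, interval 0.984 to 26.0%), against 3.39%, both in the intergenic peaks beside abd-A. CAGGTAG, the word of the early embryonic factor Zelda, was in 1 (4.0%, interval 0.101 to 20.4%), against 0.696%, the strongest peak of the 25. TGATNNAT, a word described for Hox proteins with Exd, was in 1 (4.0%), against 15.9%, the peak at CG1307. The promoter words TATCGATA (DRE) and CACTGAGA were in 0 of 25, against 3.33% and 4.09% of all IDR windows, where a count of 0 of 25 allows a share of up to 13.7% by the same interval. GC content was the same within its spread, at 34.2% ± 7.27 in the Hox windows (SD, n = 25) and 34.0% ± 6.31 in all IDR windows (SD, n = 4599).

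Genes related to the Hox genes by function or sequence are read beside the 20.4% of all protein-coding genes with an IDR peak at a promoter. Of 6 cofactor and partner genes, 1 (16.7%) had one, a share near that background. It was exd, whose product binds DNA with Hox proteins, with a signal of 117 (rank 4153). Of 12 described Hox targets, 1 (8.33%) had one, fkh, a salivary gland regulator and target of Scr, with a signal of 238 (rank 1597). Of the 4 other homeobox genes inside the Antennapedia complex, 1 (25.0%) had one, bcd. Of the 55 homeobox genes outside the complexes, 3 (5.45%) had one. These 3 were the heart gene tin, with a signal of 516 (rank 378), PHDP with 218 (rank 1842) and the eye gene so with 208 (rank 1961). Of the 7 non-coding genes of the complexes that were found in the annotation, 0 had an IDR peak at a promoter. The 2 that held IDR peaks inside were the longest, lncRNA:bxd of 31.1 kb with 3 and lncRNA:iab8 of 92.1 kb with 6. No share over non-coding genes of like length was computed, so nothing is read from these counts.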

How the data were processed

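The data were ChIP-seq region lists of 3 samples in 1 group. The authors deposited, per the file headers, 1 list of peaks and background per replicate, 1 from the pooled replicates and 1 thresholded by IDR. The signal of each region is a score on an unstated scale, which the authors made from the alignments and the shared control; it served for ranking within a list. No source used here names the aligner, the peak caller or the IDR threshold. Lists on dm6 were used, and those on dm3 were not used here. Depth is unknown, so values carry no depth error.

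Genes came from Ensembl release 115 and sequence from RefSeq on the same assembly. A summit was placed as promoter (within 500 bp of a TSS of any gene), UTR, exon, intron or intergenic, in that order. Shares of bases were taken at positions 100 bp apart in the Hox windows and 2000 bp apart on the arms. Where a share has an interval, it is a 95% Clopper-Pearson interval, and other shares are given without one. The named genes were the 8 Hox genes, those nearest to their IDR peaks or around the windows, and list members with a promoter peak. Members and lists were chosen with earlier results of these data known. Of the listed names, 1 (lncRNA:PRE-bx) was not found. Alternatives changed the list, window, promoter size, overlap, the replicates required to hold a peak and the motif window. On simulated data, only the finding of summits in the windows and the calling of promoters 500 bp from a TSS were checked. The placing in UTRs, exons, introns and intergenic sequence was not. Tools were matplotlib 3.10.9, scipy 1.17.1, pandas 2.3.3, numpy 2.4.6 and Python 3.11.15.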

Additional observations from a re-analysis of the deposited data

How the results depend on the processing

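The 25 IDR peaks in the Hox windows became 10 among the 2299 strongest of the list, 13 within 5 kb, 10 in gene bodies alone and 8 where the nearest TSS of all genes had to be that of a Hox gene. The 1 Hox gene with a promoter peak became 0 within 250 bp, 0 among the 2299 strongest and 3 in the pooled list. The density of 3.98 per 100 kb became 1.59 among the 2299 strongest and 15.9 in the pooled list. Pooled regions became 65 within 5 kb and 51 in gene bodies. Among the 2299 strongest, promoter peaks became 3 and peaks inside Hox genes 5; these last 2 results and their alternatives, and the merging of overlapping pooled regions (90), were chosen after seeing the data. No IDR list was remade without a replicate, so each was left out only of the rule for held peaks. Peaks held by the other 2 numbered 20 to 22, a count that could not fall below 19. Among them 1 Hox gene had a promoter peak each time, with 5 to 6 promoter peaks and 8 to 9 peaks inside Hox genes. By construction these counts could not rise above those of the whole IDR list. Of the main counts and the density, 31 alternatives stayed within 1.5 times and 13 did not. Shares of GAGAG, the homeodomain core and the CTCF core were larger in wider windows, in the Hox peaks and in all IDR peaks. Within 250 bp GAGAG was in 48.0% of Hox windows, against 50.6% of all, TAATTA in 36.0%, against 34.3%, and the CTCF core in 36.0%, against 24.3%. Within 50 bp GAGAG was in 12.0%, against 8.46%, TAATTA in 4.0%, against 11.4%, TGATNNAT in 0%, against 9.0%, and the CTCF core in 12.0%, against 4.96%. The cause was not tested; fewer peaks or bases enter most of these alternatives by construction. No paired analysis was possible because there is 1 group. With 25 peaks, shares are known only to within wide intervals, and without depth no absence below the lists can be read.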
